A study of Mus musculus with 24 samples.

Results

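Cerebellins, neurexins and neuroligins are proteins that hold the 2 sides of a synapse together. The genes described here are Cbln2 and Cbln4 (secreted cerebellins), Nrxn2 and Nrxn3 (neurexins) and Nlgn1, Nlgn2 and Nlgn3 (neuroligins), 7 of the 14769 genes listed in the deposited expression tables. They were chosen by symbol because Cbln4 was far lower in PI than in CL cortex, to ask whether its partners in trans-synaptic adhesion moved with it. The difference of Cbln4 between PI and CL is therefore a description and has no test. All 7 genes were listed in all 4 tables, so none was lost to a filter on low values.

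Ribosome-depleted total RNA of mouse cortex was sequenced in 24 libraries, 6 in each of 4 groups. All animals were males of 3 to 4 months whose middle cerebral artery was closed by a monofilament for 1 h, followed by 1 day of reperfusion (transient middle cerebral artery occlusion, a model of ischaemic stroke). WT animals were wild type, KO animals lacked ciRS-7 (also called Cdr1as), a circular RNA with many binding sites for the microRNA miR-7, and the strain is given as C57BL/6N-Cdr1asem1Nikr for both. Each animal gave a CL and a PI sample, names kept here as the labels give them, so every group had undergone the occlusion and no sham animals enter these comparisons. Cdr1as itself stood at 2558 to 3890 CPM (read counts scaled to a common library total) in the WT libraries and at no more than 0.166 CPM in the KO libraries of the tables that list it. That is below the level of 3 reads, which was 0.286 to 0.799 CPM at effective depths of 3.76 to 10.5 M reads (megareads) per library. Markers of cortical excitatory neurons were present in every group, with all 8 of the genes listed and a summed level of 863 to 1117 CPM.

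Cerebellins are released from nerve terminals and bind neurexins on the same terminal, and through them bridge the synaptic cleft to delta glutamate receptors such as GluD1. Neuroligins sit in the postsynaptic membrane and bind neurexins directly. Nlgn1 is best known from excitatory synapses, Nlgn2 from inhibitory synapses, and Nlgn3 from both. In cortex Cbln4 is known as a product of somatostatin interneurons that acts at inhibitory synapses on dendrites, and it also binds the netrin receptor Dcc.

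Since the KO animals lack a circular RNA that binds miR-7, the 3′ untranslated regions of the 7 genes were searched for the 7 bases that pair with the miR-7 seed (bases 2 to 8, in capitals in the mature sequences from RefSeq). Both mature forms share this seed.
mmu-miR-7a-5p: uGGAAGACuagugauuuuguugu
mmu-miR-7b-5p: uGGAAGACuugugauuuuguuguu
The match GTCTTCC was found in 2 of the 7 genes, Nlgn1 and Nlgn2, once in each. The sites are shown with their flanks, the match in capitals.
Nlgn1: atgaatgtctaGTCTTCCatgaatcattc
Nlgn2: agtggggtgctGTCTTCCactgacaccca
The Nlgn1 match lies at bases 7365 to 7371 of the longest annotated 3′ untranslated region of its gene, and the Nlgn2 match at bases 1727 to 1733. Such a match occurs in 11.9% of the 21022 mouse genes with an annotated 3′ untranslated region, and in 43.8% and 17.8% of genes with regions about as long as those of Nlgn1 and Nlgn2. It is a match of letters, and binding of miR-7 was not measured.

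The promoter of Cbln4, the gene with the largest difference among the 7, is shown for its sequence. The gene lies on chromosome 2, from 172036233 to 172043466 on the minus strand (GRCm38), and the 250 bases before its start are chr2:172043467-172043716 (RefSeq, GRCm38.p6), printed 5′ to 3′ along the gene.
Cbln4: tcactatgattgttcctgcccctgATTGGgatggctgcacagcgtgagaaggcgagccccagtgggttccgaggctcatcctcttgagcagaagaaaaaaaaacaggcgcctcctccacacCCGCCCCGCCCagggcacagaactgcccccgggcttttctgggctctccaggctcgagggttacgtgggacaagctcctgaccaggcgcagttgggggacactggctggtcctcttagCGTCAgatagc
Capitals mark 2 GC boxes (GGGCGG, at −129 and −124 from the start), a CCAAT box (CCAAT, at −226) and the core of a cyclic AMP response element (TGACG, at −11), each found here on the opposite strand. Over 32851 promoters of the same length, both strands searched, these letters occur in 32.7%, 33.8% and 17.8%. The 8-base cyclic AMP response element (TGACGTCA), the AP-1 site (TGACTCA), the TATA box (TATAAA) and the EGR site (GCGTGGGCG) have no match in this window.

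Comparison of PI with CL cortex asked how each gene differed between the 2 groups of samples 1 day after the occlusion. The main test did not pair the samples by animal, and the pairing entered only as an alternative. Both cerebellins were lower in PI in both genotypes, while of the 5 neurexins and neuroligins Nlgn3 passed the test, with a much smaller difference. Nlgn2 did not pass in this test but did in KO with the animals as blocks. Of the 6 partners of Cbln4, 2 fell in WT and the same 2, Cbln2 and Nlgn3, fell in KO. Among all genes 5.4% passed as lower in WT and 4.94% in KO, and 10.6% and 10% passed in either direction. The median log2 difference of the 6 partners was −0.14 in WT and −0.18 in KO, against 0.01 and −0.00 over all genes. These genes were chosen with earlier results in view, and nothing about the group is read from this count. In bulk tissue, fewer cells that make a transcript and less of it per cell cannot be told apart.

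Cbln4 was the most changed of the 7 genes. Ranges given here are of values as deposited, in which the outermost values of each group had been drawn in, so true ranges are wider and groups said not to overlap may do so in the reads. Differences within animals use the same values. They, and the counts of animals lower in PI, may therefore differ in the reads. In WT its lowest, median and highest deposited values were 4.12, 4.37 and 4.55 log2 CPM in CL, and 2.33, 2.57 and 2.78 in PI. In KO they were 4.34, 4.41 and 4.58 log2 CPM in CL, and 2.35, 2.83 and 3.19 in PI. As deposited, every PI library lay below every CL library, by more than 1 log2 unit. The groups likewise did not overlap for 32.8% of all genes in WT and 34.3% in KO. The KO PI libraries were the most spread, with replicates 1, 4 and 6 low and 2, 3 and 5 high. The trimmed means (means of the 4 inner values of 6) differed by −1.78 ± 0.18 (SE) in WT, a 3.44-fold lower level in PI, and by −1.65 ± 0.23 in KO, a 3.15-fold lower level. A more negative difference was seen in 14 of 14489 genes in WT and 16 of 14338 in KO. Cbln4 was chosen for its fall in these same values, so its rank and its separation describe the choice and are no support. Within animals the difference ran from −2.21 to −1.48 in WT and from −2.23 to −1.25 in KO. The lowest PI value corresponds to about 5 CPM and is well above the level of 3 reads.

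Cbln2, a close relative of Cbln4 that in cortex is made mainly by excitatory neurons, fell as well. Its lowest, median and highest values in WT were 5.21, 5.27 and 5.40 log2 CPM in CL and 4.13, 4.28 and 4.56 in PI. In KO they were 5.18, 5.31 and 5.41 log2 CPM in CL and 4.49, 4.59 and 4.86 in PI. The groups did not overlap in either genotype, as was so for 32.8% of all genes in WT and 34.3% in KO. The difference was −0.97 ± 0.13 in WT (adjusted p = 0.00061), which is 49.0% less RNA, with a 95% interval from 37.9% to 58.1%. In KO the difference was −0.65 ± 0.13 (adjusted p = 0.00713), which is 36.4% less, with an interval from 22.9% to 47.6%. Since the groups did not overlap, it was lower in PI in 6 of 6 animals of each genotype. Adjusted p-values are by Benjamini-Hochberg over all genes of the table, from the moderated trimmed-mean test.

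**Figure D1:**
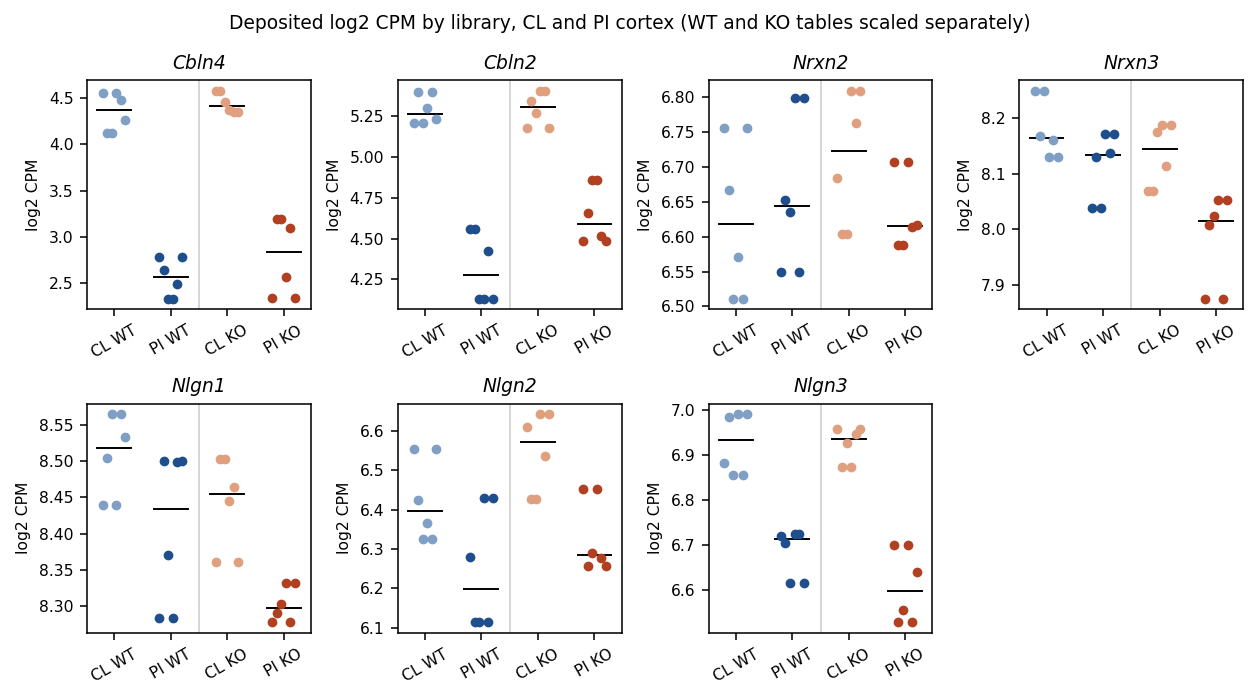
Deposited log2 CPM of the 7 genes in each of the 24 libraries (vertical axis, a separate range for each gene), by group, with a line at the group median. WT and KO panels come from tables scaled separately. Cbln4 and Cbln2 separate CL from PI by far more than the spread within groups, and the axis ranges of the neurexins and Nlgn1 span under 0.5 log2 units.

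The neurexins, the presynaptic receptors of cerebellins and neuroligins, had small differences that did not pass the test. Nrxn2 had medians of 6.62 log2 CPM in CL and 6.64 in PI of WT, and 6.72 and 6.62 in KO, with overlapping groups. Its difference was 0.04 ± 0.10 in WT (adjusted p = 0.879) and −0.08 ± 0.08 in KO (adjusted p = 0.616), lower in PI in 2 of 6 WT and 5 of 6 KO animals. In WT the sign of that value turned when any of 4 libraries was left out. Nrxn3 had medians of 8.16 in CL and 8.13 in PI of WT, and 8.14 and 8.02 in KO. All 6 KO PI libraries of Nrxn3, at 7.87 to 8.05, lay below the KO CL libraries, at 8.07 to 8.19. As deposited, 34.3% of all genes in KO likewise did not overlap. The difference of Nrxn3 was −0.07 ± 0.06 in WT (adjusted p = 0.592) and −0.15 ± 0.07 in KO (adjusted p = 0.215). The 95% intervals allow at most 15.7% less Nrxn2 in KO and 19.3% less Nrxn3 in KO.

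Nlgn3, the neuroligin of both excitatory and inhibitory synapses, fell in PI. In WT its lowest, median and highest values were 6.86, 6.93 and 6.99 log2 CPM in CL and 6.62, 6.71 and 6.72 in PI. In KO they were 6.87, 6.94 and 6.96 log2 CPM in CL and 6.53, 6.60 and 6.70 in PI. The groups did not overlap, as was so for 32.8% of all genes in WT and 34.3% in KO. All 6 animals of each genotype were therefore lower in PI as deposited. The difference was −0.24 ± 0.07 in WT (adjusted p = 0.0306), 15.5% less RNA, and −0.31 ± 0.07 in KO (adjusted p = 0.0135), 19.6% less. In WT the call rests on single libraries: without PI replicate 3 or 6, or CL replicate 2, 4 or 6, the adjusted p was 0.0674 to 0.0887. Without a trend of the prior variance on expression level it was 0.0942 in WT and 0.062 in KO.

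Nlgn2, the neuroligin of inhibitory synapses, had medians of 6.40 log2 CPM in CL and 6.20 in PI of WT, and 6.57 and 6.28 in KO, and the groups overlapped. The difference was −0.18 ± 0.11 in WT (adjusted p = 0.367) and −0.22 ± 0.09 in KO (adjusted p = 0.170). With the animal as a replicate block the KO value passed the test, at an adjusted p of 0.0448, and the WT value did not, at 0.0899. Nlgn2 was lower in PI in 5 of 6 WT and 6 of 6 KO animals. Nlgn1, the neuroligin of excitatory synapses, had medians of 8.52 in CL and 8.43 in PI of WT, and 8.46 and 8.30 in KO. The difference of Nlgn1 was −0.10 ± 0.08 in WT (adjusted p = 0.469) and −0.14 ± 0.06 in KO (adjusted p = 0.172). As deposited, Nlgn1 was lower in PI in all 6 animals of each genotype, in WT by differences from −0.19 to −0.005. Its groups overlapped in WT and did not in KO, as was so for 34.3% of all genes there. Its intervals run from 16.8% less to 4.40% more in WT and from 16.9% to 0.573% less in KO.

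**Figure D2:**
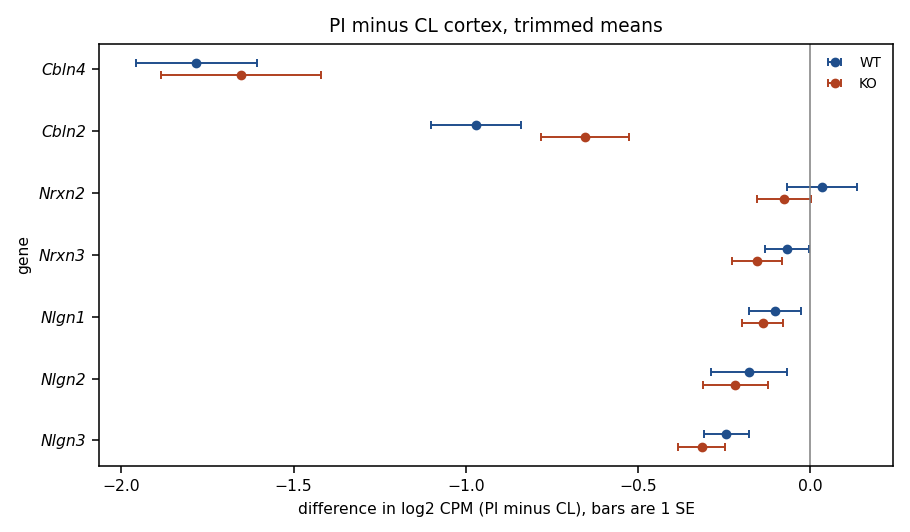
Difference PI minus CL in log2 CPM (horizontal axis) of each gene, as trimmed means with bars of 1 SE, in WT and KO. The cerebellins stand at −0.65 or lower in both genotypes, and the neurexins and neuroligins lie between −0.31 and 0.04.

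Levels of different genes were compared as CPM per kilobase of merged exon. In WT CL cortex the order of medians was Nlgn1 at 27.3, Nrxn3 at 22.8, Nlgn2 at 14.6, Cbln2 at 13.3, Nlgn3 at 13.2, Nrxn2 at 7.11 and Cbln4 at 7.11 CPM per kilobase. The ranges over 6 libraries overlapped between Nlgn2, Cbln2 and Nlgn3, each with the next, and between Nrxn2 and Cbln4. Cbln4 was thus at the level per length of a neurexin in CL, and in PI it stood alone at the bottom, at 2.05 in WT and 2.45 CPM per kilobase in KO. Cbln2 moved from the fourth place in CL to 6.70 CPM per kilobase in WT PI, where its range overlapped that of Nrxn2 at 7.24, and to 8.31 in KO PI. Nlgn1 and Nrxn3 held the first and second place in all 4 groups, with ranges that did not overlap. In KO CL cortex, Cbln2 at 13.7 and Nlgn3 at 13.2 overlapped, as did Nrxn2 at 7.65 and Cbln4 at 7.33. The other genes lie at chromosome 19, 6418731 to 6544169 (Nrxn2), chromosome 12, 88722876 to 90334935 (Nrxn3), chromosome 3, 25426215 to 26332460 (Nlgn1), chromosome 11, 69823122 to 69837784 (Nlgn2), chromosome X, 101299168 to 101325963 (Nlgn3), all on GRCm38, and on chromosome 18 (Cbln2).

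The pattern of Cbln4 over the 12 libraries of each PI and CL table was compared with that of 14210 genes with a mean of at least 1 CPM. The 5 genes most like it, by the mean of the Pearson correlations in WT and KO, were Syne1 (mean r = 0.980), Drp2 (0.979), Crispld1 (0.976), Cadps2 (0.973) and Tbc1d1 (0.968). All points share the difference between CL and PI and the depth of each library, so these values describe likeness and carry no test. Crispld1, a secreted protein gene, differed by −1.37 in WT and −1.15 in KO, and Cadps2, a regulator of dense-core vesicle release, by −0.87 and −0.77. Among the partners, Cbln2 ranked 173 with a mean r of 0.914 and Nlgn3 ranked 832 with 0.802. Nlgn1 (0.582), Nrxn3 (0.546) and Nlgn2 (0.512) followed, and Nrxn2 was at −0.00.

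The wider set of trans-synaptic adhesion genes was described from a list of 68 genes, of which 64 were listed in the tables. In WT 3 of the 64 rose and 20 fell, with a median of −0.16, and in KO 1 rose and 18 fell, with a median of −0.21. Among all genes 5.2% passed as higher and 5.4% as lower in WT, and 5.11% and 4.94% in KO. The same 12 genes fell in both genotypes, which is 12 of 20 in WT and 12 of 18 in KO. The 2 comparisons share no library. Among all genes the share that fell in both is not given here, so nothing particular to this set is read from the overlap. These counts rest in part on single libraries: without 1 library 15 to 19 fell in WT and 8 to 22 in KO, where leaving out PI replicate 3 or 5 or CL replicate 1, 2, 3, 4 or 5 gave 8 to 11. Without a trend of the prior variance 10 fell in WT and 8 in KO, and the rises in either genotype were lost.

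By role, the C1q-domain relatives of the cerebellins had 2 of 5 genes listed. C1ql3 rose in WT by 0.27 ± 0.07 (adjusted p = 0.0293), a call lost without PI replicate 2, 3 or 4 or CL replicate 1, 3, 5 or 6 (adjusted p up to 0.0679), and none passed in KO, also at an unadjusted p under 0.05. Cbln1, the cerebellar founder of the family, stood at 0.64 ± 0.29 in WT (adjusted p = 0.206) and 0.18 ± 0.51 in KO (adjusted p = 0.870). Of the 4 cerebellin receptor genes, 0 passed the trimmed-mean test in WT, with 1 at an unadjusted p under 0.05, and 1 fell in KO. That was Grid1, which encodes GluD1, at −0.36 ± 0.08 (adjusted p = 0.0175) against −0.22 ± 0.08 in WT (adjusted p = 0.0911). Grid1 and Cbln1 were named after their values were seen, and whether the genotypes differ in Grid1 was tested in the interaction, where it did not pass.

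Of 11 listed neurexin-related genes, most of them neurexin ligands, 1 rose and 4 fell in WT and 4 fell in KO. Clstn2, a calsyntenin of the postsynaptic membrane, rose by 0.20 ± 0.06 in WT (adjusted p = 0.0415), a call lost when any 1 of the 12 libraries was left out or libraries were centred on their median gene. Of the 3 proteins that block or bridge pairs of neurexin and neuroligin, 2 fell in WT and 1 in KO. They were Sparcl1, a bridging protein from astrocytes, in both, and Mdga1, a blocker of neuroligins, in WT, the last at −1.01 ± 0.24 (adjusted p = 0.018). These 2 were named after their values were seen.

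Of 9 intracellular partners, 3 fell in WT, and 1 rose and 1 fell in KO. Lin7c, a small scaffold protein that binds Cask, rose by 0.24 ± 0.07 in KO (adjusted p = 0.0449), and without PI replicate 2, 3, 5 or 6 or CL replicate 2, 3, 4, 5 or 6 the adjusted p was 0.0516 to 0.111. Among 35 genes of other adhesion pairs, 1 rose and 11 fell in WT and 11 fell in KO. Ptprd, a presynaptic receptor phosphatase, fell by 0.46 ± 0.06 in WT (adjusted p = 0.000448) and by 0.39 ± 0.05 in KO (adjusted p = 0.000361). Its postsynaptic partner at inhibitory synapses, Slitrk3, fell by 0.39 ± 0.06 in WT (adjusted p = 0.00182) and by 0.41 ± 0.06 in KO (adjusted p = 0.000872). The related phosphatase Ptprf rose by 0.56 ± 0.13 in WT (adjusted p = 0.0179, and 0.0503 without PI replicate 3).

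**Figure D3:**
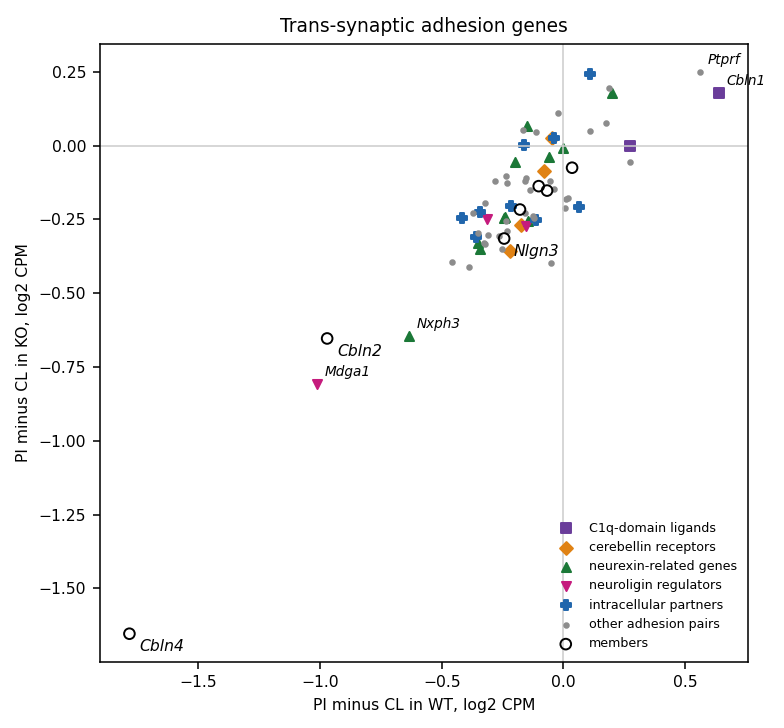
Difference PI minus CL in log2 CPM in WT (horizontal axis) and KO (vertical axis) of the 7 genes (open circles) and the 64 listed genes of the wider set, by role. Cbln4 lies apart at −1.78 and −1.65, Cbln2 and Mdga1 are next, and most others lie between −0.5 and 0.25.

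Marker genes of cell types were measured beside these differences, and their part in them was not tested. All 8 pan-neuronal markers had a negative difference in both genotypes, 3 of them passed as lower in each, and the medians were −0.26 in WT and −0.24 in KO. Their summed level was 6911 to 7570 CPM in PI and 8135 to 8654 in CL of WT, and 6724 to 7356 and 7913 to 8368 in KO. Nefl, a neurofilament subunit, had the smallest p of the list in both genotypes, at −0.41 in WT (adjusted p = 0.00291) and −0.31 in KO (adjusted p = 0.00427). The 8 genes spanned −0.41 to −0.07 in WT and −0.33 to −0.01 in KO. The differences of Nlgn1, Nlgn2 and Nlgn3 lay within these spans, and those of Cbln4 and Cbln2 below them.

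Inhibitory neuron markers, the class that includes the known source of Cbln4, went in both directions: of 10 genes, 1 passed as lower in WT and 2 as higher in KO. Their medians were 0.04 in WT and 0.01 in KO, and their summed level was 666 to 773 CPM in PI and 647 to 709 in CL of WT, and 712 to 768 and 682 to 713 in KO. Vip fell in WT (−0.47, adjusted p = 0.0475), a call lost without PI replicate 1, 3, 4 or 6 or any 1 CL library (adjusted p 0.0559 to 0.116), and Gad2 (0.38, adjusted p = 0.00652) and Npy (0.33, adjusted p = 0.0139) rose in KO. Sst, the peptide of the interneurons named above, was at 0.52 ± 0.27 in WT (adjusted p = 0.285) and 0.48 ± 0.15 in KO (adjusted p = 0.0549), which did not pass the test. Of the other markers in the list known from these cells, Elfn1 was at −0.04 ± 0.14 in WT (adjusted p = 0.903) and −0.38 ± 0.16 in KO (adjusted p = 0.152), and Grin3a at 0.01 ± 0.09 (adjusted p = 0.947) and −0.17 ± 0.09 (adjusted p = 0.301). Sst, Npy, Elfn1 and Grin3a were named after their values were seen.

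Excitatory neuron markers had medians of −0.06 and −0.14, with 1 of 8 lower in WT (Rorb of layer 4 neurons, −0.78, adjusted p = 0.00186) and 0 in KO, where 3 had an unadjusted p under 0.05. Their summed level was 918 to 988 CPM in PI and 1043 to 1117 in CL of WT, and 863 to 964 and 1056 to 1100 in KO. Gfap, the astrocyte intermediate filament gene, rose by 1.88 in WT (adjusted p = 1.9e-06) and by 2.19 in KO (adjusted p = 8.5e-06), while the 6 astrocyte genes had medians of 0.08 and 0.05, with 2 higher and 2 lower in WT and 2 higher and 1 lower in KO. Oligodendrocyte markers had medians of −0.37 and −0.15, with 1 of 6 lower in WT (Cnp, −0.41, adjusted p = 0.0167, and 0.0501 or 0.0503 without CL replicate 4 or 5) and 0 in KO, where 1 had an unadjusted p under 0.05 and was higher. Precursor markers had medians of −0.08 and −0.14, with 1 of 4 lower in WT (Cspg4, −0.53, adjusted p = 0.0164) and 0 in KO, also at an unadjusted p under 0.05. Microglia markers had medians of 0.09 and 0.22, with 2 of 6 higher and 1 lower in each genotype. The microglial gene P2ry12 was at −0.82 in WT (adjusted p = 0.0139) and −0.75 in KO (adjusted p = 0.00303). Endothelial markers had medians of 0.40 and 0.19 with 0 of 5 called, and 2 in WT and 1 in KO at an unadjusted p under 0.05.

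Markers of neighbouring regions were measured as well. The 5 listed striatal genes had medians of 0.00 and 0.15, and of them Ppp1r1b rose by 0.63 in WT (adjusted p = 0.0159, and 0.0510 without CL replicate 6). Ppp1r1b was named after its value was seen. Thalamic markers had medians of −0.14 and −0.31 with 0 of 5 called and 1 in each genotype at an unadjusted p under 0.05, and their summed level was 31.6 to 49.8 CPM in PI and 50.6 to 53.9 in CL of WT, and 37.5 to 40.9 and 38.8 to 48.2 in KO, where the groups overlapped. The 1 listed gene of 4 choroid plexus markers was at −0.17 and −0.51. None of 7 neutrophil and monocyte markers is listed in the tables of PI and CL.

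**Figure D4:**
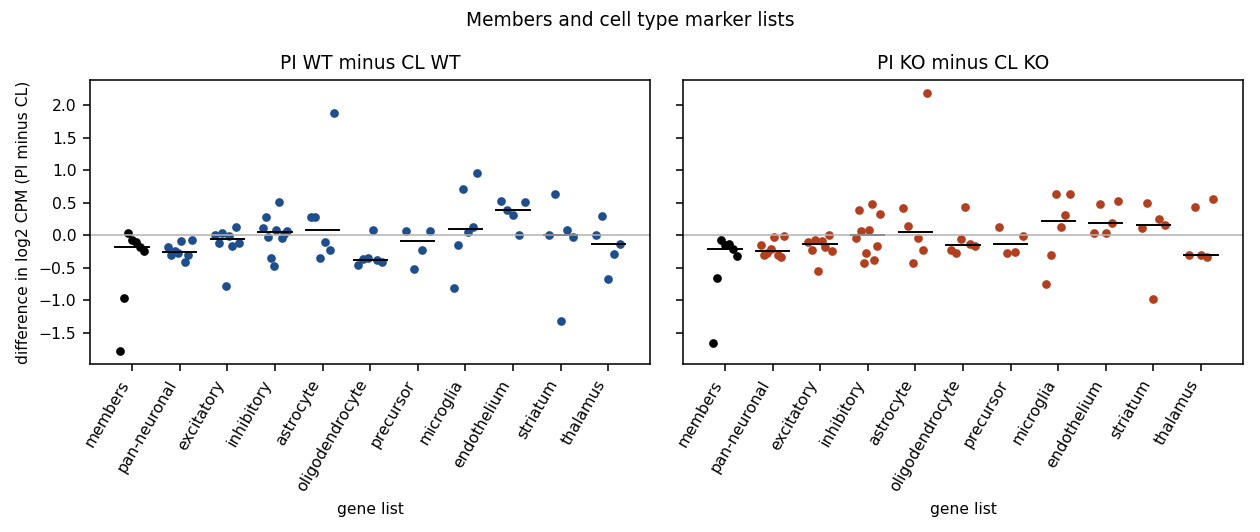
Difference PI minus CL in log2 CPM (vertical axis) of the 7 genes and of each marker gene by list, in WT (left) and KO (right), with a line at each list's median. Cbln4 is the lowest point in both panels, and the medians of the neuronal lists lie between −0.26 and 0.04.

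Comparison of KO with WT asked whether loss of ciRS-7 changed these genes in either sample. None of the 7 passed the test, in PI (where 0.0208% of all genes passed) or in CL (0.0279%), and none had an unadjusted p under 0.05, beside 5.75% and 5.73% of all genes. In PI, Cbln4 had lowest, median and highest values of 2.35, 2.60 and 2.81 log2 CPM in WT and 2.38, 2.87 and 3.23 in KO, and the groups overlapped. Its difference was 0.24 ± 0.27 (adjusted p = 0.919), with a 95% interval from −0.34 to 0.82 that reaches a 76.0% higher level. In CL, Cbln4 was at 4.09, 4.33 and 4.51 in WT and 4.31, 4.38 and 4.55 in KO, a difference of 0.10 ± 0.14 (adjusted p = 0.975).

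Cbln2 in PI was at 4.16, 4.31 and 4.59 log2 CPM in WT and 4.52, 4.62 and 4.89 in KO. The groups overlapped, as the lowest KO value lay below the highest WT value. The difference was 0.33 ± 0.16 (adjusted p = 0.854), with an interval from 1.37% lower to 59.6% higher. In CL it was 0.01 ± 0.09 (adjusted p = 0.997). On the values as deposited, limma called Cbln2 (adjusted p = 0.0348) and Nrxn3 (adjusted p = 0.0385) in PI and 0 of the 7 in CL, a test that understates the spread of these data. Among all genes limma called 2388 of 14452 in PI and 2311 of 14323 in CL.

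The 2 genes with a miR-7 seed match, shown above, did not pass either. Nlgn1 differed by −0.10 ± 0.07 in PI (adjusted p = 0.889) and −0.06 ± 0.06 in CL (adjusted p = 0.954). Nlgn2 differed by 0.09 ± 0.11 in PI (adjusted p = 0.935) and 0.13 ± 0.09 in CL (adjusted p = 0.916). The values of Nlgn1 were negative and those of Nlgn2 positive in both samples. The differences of Nrxn2, Nrxn3 and Nlgn3 lay between −0.13 and 0.09. The 7 genes overlapped between genotypes in both tables, whereas 14.1% of all genes in PI and 13.5% in CL did not.

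The interaction, the PI and CL difference of KO less that of WT, tested the genotypes against each other in their response. None of the 7 passed, 0 of all 14211 genes did (0% of genes), and the smallest adjusted p was 0.992. None of the 7 had an unadjusted p under 0.05, beside 4.55% of all genes. Cbln2 had the largest value, 0.32 ± 0.20 (95% interval from −0.10 to 0.73), and Cbln4 was at 0.13 ± 0.32 (from −0.54 to 0.80). These intervals do not exclude genotype differences of that size in the change of either cerebellin. The neurexins and neuroligins lay between −0.11 and −0.04, with intervals within −0.40 and 0.29. Of the 64 listed genes of the wider set, 0 passed in either comparison of KO with WT or in the interaction, with 3 (PI), 4 (CL) and 3 (interaction) at an unadjusted p under 0.05. The alternative test with limma on the deposited values, which understates the spread, called 7, 12 and 8 of them. Among all genes it called 2388 of 14452 (PI), 2311 of 14323 (CL) and 1940 of 14211 (interaction).

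**Figure D5:**
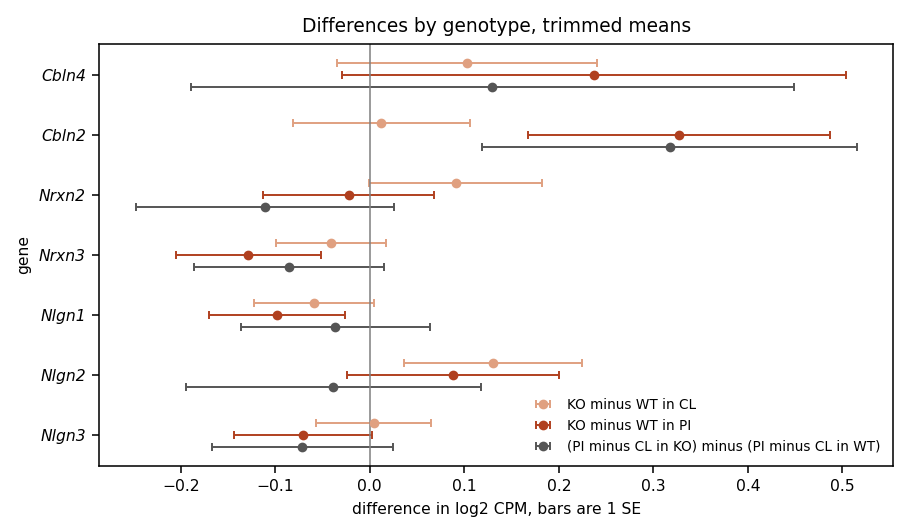
Differences of KO minus WT in CL and in PI, and their difference (the interaction), in log2 CPM (horizontal axis), as trimmed means with bars of 1 SE. No value passed the test. Those of Cbln4 and Cbln2 in PI are positive, and the widest bar is that of Cbln4 in the interaction.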

How the data were processed

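The authors deposited log2 CPM in 4 tables of 12 libraries, per the file headers. The build is mm10 per the submitters' processing notes, while aligner, annotation, counting and scaling are not given in the sources used here. Each table was scaled separately (the same library differed by a median of 0.0265 to 0.0332 log2 units), so tests stayed within a table. In 100% of genes each group of 6 had 2 equal values at its bottom and 2 at its top, as after Winsorizing to the quartiles. The 4 inner values were solved from these, and the ends cannot be. Of tied low values, 46.6% were whole reads (within 0.03 read) after this, where 1 library of each tied pair holds the value, and 6.26% as deposited. Effective depth, from the step that made low CPM whole (84.7% to 90.8% of values), was 3.76 to 10.5 M reads, shallowest in CL KO replicate 6. Limits of 3 reads cover counting error only.

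Trimmed means were tested two-sided with Winsorized sums of squares (6 degrees of freedom, 12 for the interaction), limma 3.58.1 variance moderation with a trend (R 4.3.3) and Benjamini-Hochberg adjustment over all genes, at 0.05. In simulated data with no gene changed, 0 were called. With 200 genes changed by 0.5, 1 or 2 log2 units, 53.2%, 86.6% and 97.5% of them were called in PI KO against CL KO (14338 genes), where 3.01% of calls were false, and 6.06% were false in PI WT against CL WT (14489 genes). PI and CL samples with the same number come from 1 animal per the labels, and their deviations correlated at −0.16 to 0.29 in WT and −0.02 to 0.16 in KO. Alternatives were the replicate block, limma on the deposited values, no trend, median centring, a pseudocount of 0.5 CPM, a mean of at least 1 CPM, and leaving out each library.

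Members and lists were chosen with earlier results of these data known. Named are the 7 members, the 5 genes most like Cbln4, up to 4 called genes of the wider set per direction and comparison with the smallest p, 1 called gene per marker list and comparison, and others where said. Some genes that this rule names are not reported here. The RefSeq promoter table held 4 of the 7 genes. All columns of values were used (0 unused).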

Additional observations from a re-analysis of the deposited data

How the results depend on the processing

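No gene of the 7 that passed the test changed sign under any alternative. Of the 6 partners in PI against CL of WT, 3 passed with limma on the deposited values (Nlgn2 at an adjusted p of 0.0396), 1 with no trend, and 1 to 2 when 1 library was left out. In KO 5 passed with limma on the deposited values, 1 with no trend, and 2 to 2 when 1 library was left out. Limma on the deposited values called 2 of the 7 between genotypes in PI. Over all genes the trimmed-mean test called 1537 in PI against CL of WT, 1440 in that of KO, 3 between genotypes in PI, 4 in CL and 0 in the interaction, and limma on the deposited values 6459, 6666, 2388, 2311 and 1940. On unchanged simulated data limma called at least 1873 genes. With no trend PI against CL gave 1015 genes in WT and 739 in KO. Without PI KO replicate 2 the KO count was 922, without CL KO replicate 5 it was 900, and without CL KO replicate 1 the count between genotypes in CL was 7. The replicate block gave 2275 genes and 2 partners in WT and 2154 and 3 in KO, and Nlgn2 in KO was the 1 call among the 7 genes that it changed. WT and KO animals share only a number. The block there gave 6 genes in PI, 85 in CL and 1 in the interaction, with 0 of the 7, and same-numbered samples correlated at −0.13 to 0.14 in PI and −0.23 to 0.12 in CL, best with their own number in 0 and 1 of 6. For the wider set, limma on the deposited values called 7 higher and 41 lower in WT and 5 and 41 in KO, the replicate block called 5 higher in WT, and median centring called 0 higher in KO. With no trend C1ql3, Clstn2, Sparcl1, Ptprf, Vip, Cnp, P2ry12 and Ppp1r1b in WT and Grid1, Sparcl1, Lin7c and Gad2 in KO no longer passed. When libraries were left out, the sign of uncalled genotype values turned for Cbln2 (−0.03 to 0.06) and Nlgn3 (−0.02 to 0.03) in CL and Nrxn2 in PI (−0.07 to 0.04), and in the interaction for Cbln4 (−0.02 to 0.30) and Nlgn2 (−0.10 to 0.04). The number of libraries and the lost end values limit the precision of these genes.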
